A study of Mus musculus with 6 samples.

Results

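A set of 9 genes of cardiac calcium handling was followed in whole mouse embryos that had lost Brg1 and in embryos that kept it. The genes were Ryr2, Pln, Atp2a2, Casq1, Casq2, Slc8a1, Cacna1c, Sln and Hrc, and they were chosen by name, for their part in excitation-contraction coupling. The choice was made with earlier results of these data known. On the array 20 of 41174 non-control probes carried 1 of these 9 symbols. Of these, 12 probes of 6 genes entered the test, out of 27847 probes in all. The samples were Brg1d/d embryos, called Brg1 CKO below, and Brg1fl/fl embryos, which carry both floxed alleles and served as control. Tamoxifen was given to the dam of both, embryos were taken at embryonic day 8.5 (E8.5), and each genotype had 3 biological replicates with 1 array each. Neither the Cre driver nor the day of injection is given in the sources used here, nor whether embryos were pooled. Brg1 is the protein of the Smarca4 gene, the ATPase that drives SWI/SNF complexes in remodelling chromatin. Arrays measure RNA of the whole embryo, so fewer heart cells, less RNA per heart cell and a change in other tissues cannot be told apart in any value below.

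In a heart muscle cell an action potential opens voltage-gated calcium channels of the surface membrane, whose pore is encoded by Cacna1c. The calcium that enters opens the ryanodine receptor, encoded by Ryr2, and calcium stored in the sarcoplasmic reticulum is released onto the sarcomeres. The pump encoded by Atp2a2 (SERCA2) then returns calcium to the store, held back by the small membrane proteins phospholamban (Pln) and sarcolipin (Sln), while the sodium-calcium exchanger encoded by Slc8a1 moves calcium out of the cell. Inside the store calcium is bound by calsequestrin, of which Casq2 is the cardiac and Casq1 the skeletal muscle form, and by the histidine-rich protein encoded by Hrc. Mouse embryos form a beating heart tube at about the stage sampled here.

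The probes printed here are those of Casq1 and Hrc, whose falls passed in every fit that left out 1 array, and a probe of Ryr2, whose signal stayed near background. Each is 60 bases long, is written 5′ to 3′ in lower case, and joins bases that lie apart in the genome, so that it reads spliced RNA. In build mm7, the Casq1 probe lies on chr1:172180644-172182147 (minus strand), the Hrc probe on chr7:41513625-41513882 (plus strand) and the Ryr2 probe on chr13:11486533-11489004 (minus strand).
Casq1 probe: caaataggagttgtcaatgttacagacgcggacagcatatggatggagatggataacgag
Hrc probe: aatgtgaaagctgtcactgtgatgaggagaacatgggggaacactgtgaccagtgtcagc
Ryr2 probe: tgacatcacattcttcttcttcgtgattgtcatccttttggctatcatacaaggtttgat

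Promoters are shown for the 3 genes that bind calcium inside the store, because 2 of them fell and the other did not pass the test. Each is the 250 bases before the gene's RefSeq start, in build GRCm38.p6, read 5′ to 3′ on the gene's own strand, and capitals mark a MEF2-type match (CTANNNNTA on either strand). The windows are chr7:45335019-45335268 for Hrc (plus strand), chr1:172219896-172220145 for Casq1 (minus strand) and chr3:102086165-102086414 for Casq2 (plus strand).
Hrc promoter: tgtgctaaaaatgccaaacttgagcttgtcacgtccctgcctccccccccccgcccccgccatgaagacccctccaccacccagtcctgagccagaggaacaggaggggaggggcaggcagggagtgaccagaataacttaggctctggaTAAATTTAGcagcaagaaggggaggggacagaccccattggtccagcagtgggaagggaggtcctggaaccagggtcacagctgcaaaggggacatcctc
Casq1 promoter: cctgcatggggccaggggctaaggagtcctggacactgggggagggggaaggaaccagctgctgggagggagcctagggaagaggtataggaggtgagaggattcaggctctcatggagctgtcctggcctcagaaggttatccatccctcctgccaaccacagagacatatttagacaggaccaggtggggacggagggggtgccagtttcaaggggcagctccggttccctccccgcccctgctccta
Casq2 promoter: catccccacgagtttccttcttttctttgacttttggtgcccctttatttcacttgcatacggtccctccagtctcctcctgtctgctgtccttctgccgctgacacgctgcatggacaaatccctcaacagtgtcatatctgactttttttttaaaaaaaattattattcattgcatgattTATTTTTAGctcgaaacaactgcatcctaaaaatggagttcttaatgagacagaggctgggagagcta

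The MEF2-type match ended 91 bases before the start of Hrc and 59 bases before that of Casq2, and the Casq1 window held none. Over 32851 promoter windows of this length, 19% held such a match. No window of Cacna1c, Pln, Ryr2 or Slc8a1 held one, so its presence in 2 of the 3 windows printed is a description only. MEF2 factors bind such sites in muscle genes. A GATA-type match (GATAA on either strand, in 22.6% of windows) lay in the Hrc window, where it shared bases with the MEF2-type match, and in the Casq1 window. E-box letters (CANNTG, the same on both strands, in 66.2% of windows) stood in the windows of all 3 genes. Of the 9 genes, 7 matched an entry of the promoter table; Atp2a2 and Sln did not.

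The arrays differed in brightness and handling. Before scaling, the 75th percentile of the signal was 1630 units on CKO 1 and 1583 on CKO 3, against 959 to 1011 on the other 4 arrays. Spots well above background made up 68.7% to 73.5% on the CKO arrays and 68.5% to 69.3% on the control arrays. CKO 2 and the 3 controls were scanned on 1 day, and CKO 1 and CKO 3 each on a day of their own. The brightest spike-in control gave 12934 units on CKO 1 and 6905 units on CKO 3, against 208550 to 241121 units on the other 4 arrays. A same-day difference, CKO 2 minus the mean of the 3 controls, is therefore given beside the main results. With scan day as a block a fit compares only CKO 2 with the 3 controls and gives that same difference. It has no spread within CKO, so a call lost in it does not set 1 gene apart from others. With the split by spike-in signal as a block the difference is again the same-day one, and CKO 1 and CKO 3 add only to the spread. All controls lay on 1 slide and the CKO arrays on 3 others, so slide and genotype cannot be told apart. The brightest Smarca4 probe had levels of 1.49, 2.65 and 1.999 on the CKO arrays and 5.28, 4.45 and 4.49 on the control arrays, a difference of -2.69 ± 0.36 (SE, limma adjusted p 0.0114); whether it lies in the deleted part is not known here. That call was lost without CKO 3 (adjusted p 0.0556), with the spike-in split as a block (0.131), with the replicate block (0.0529) and with scan day as a block. The other Smarca4 probes, A_51_P479733 and A_52_P147044, also showed no overlap. In the main fit they differed by -2.25 ± 0.23 and -2.08 ± 0.29 (limma adjusted p 0.00543 and 0.0129). The labels do not say that replicates came from separate litters, so the p-values measure the spread between these samples.

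Levels below are log2 of the processed signal minus the 75th percentile of the same array (taken over non-control spots). They compare 1 probe between arrays, and the levels of different probes are not comparable. Differences are CKO minus control on the same log2 scale with the SE of the limma fit, and adjusted p is Benjamini-Hochberg over all 27847 probes.

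Of the 6 measured calcium handling genes 3 were lower in Brg1 CKO embryos at an adjusted p under 0.05 and none was higher. These were Casq1, Hrc and Atp2a2, each counted through its brightest probe. Over all 15025 named genes 5.3% were called lower and 5.25% higher. The median difference of the 6 genes was -1.58, against 0.07 over all genes, and all 6 differences were negative. In 5 of the 6 genes every CKO array lay below every control array, and only Casq2 overlapped; over all genes the share was 19.2%, with 22.8% separated the other way. By probe, 5 of 12 were called lower and none higher, against 4.35% lower and 5.02% higher over all probes. Casq1 and the Slc8a1 probe A_52_P231461 entered only through the control arrays, where they were high, so these counts are not free of the filter. With only probes well above background on all 6 arrays, 2 of 5 genes and 3 of 10 probes were called lower, against 734 of all 14203 genes. With no filter it was 2 of 9 genes and 4 of 20 probes, against 378 of all 19512 genes.

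**Figure D1:**
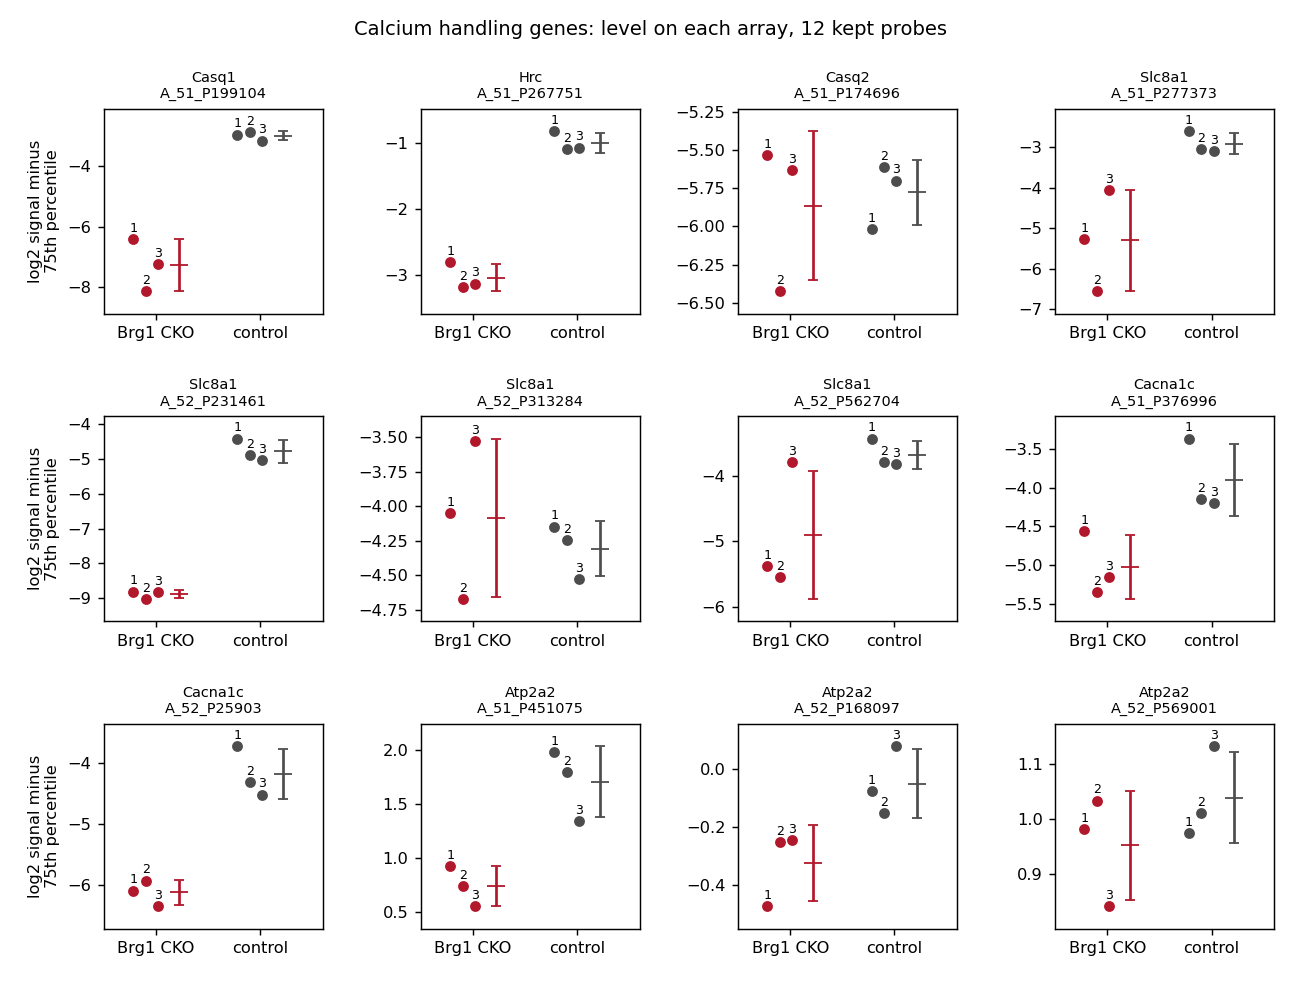
Level of each of the 12 kept probes on each array (y axis: log2 signal scaled to that array's 75th percentile, with its own range per panel), Brg1 CKO left and control right; numbers are replicates, and the bar beside the points is the mean ± SD of 3 arrays. The Casq1 points lie between -8.13 and -6.41 in CKO and between -3.16 and -2.86 in controls, while the Casq2 points of the genotypes overlap.

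Among the genes of the calcium store, Casq1 and Hrc fell, and Casq2 did not pass the test. The Casq1 probe had levels of -6.41, -8.13 and -7.24 in CKO embryos 1, 2 and 3, and of -2.95, -2.86 and -3.16 in controls 1, 2 and 3. It was well above background on all 3 control arrays and on no CKO array, so the fall is a bound. By the rule used, Casq1 was at least 12.2-fold lower in CKO. The rule sets the control mean against CKO signals raised, where lower, to the array's dimmest signal well above background. Such a bound holds for the main processing only. The measured difference was -4.27 ± 0.42 (SE, n = 3 per genotype, limma adjusted p 0.00467), and the same-day difference was -5.14. Normexp background correction adds an offset of 50 units to every signal, which shrinks differences between dim signals most, and was followed by quantile scaling. With it the difference was -1.45 with the call kept (limma adjusted p 0.00124).

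Hrc was measured well above background on all 6 arrays. Its levels were -2.81, -3.18 and -3.13 in CKO embryos, against -0.83, -1.09 and -1.08 in controls. The 2 groups were separated by far more than the spread within either, with SDs of 0.20 in CKO and 0.15 in control. The difference was -2.04 ± 0.18, a 4.11-fold fall (adjusted p 0.00345), and the same-day difference was -2.18. Both calls, that of Casq1 and that of Hrc, held in each fit that left out 1 array, with the spike-in split as a block (adjusted p 0.0162 for Casq1 and 0.0394 for Hrc) and with no filter on dim probes (0.0139 and 0.0113). With scan day as a block both were lost (0.0821 and 0.139).

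Casq2, the cardiac calsequestrin, had levels of -5.53, -6.43 and -5.63 in CKO embryos and of -6.02, -5.61 and -5.70 in controls. The groups overlapped, and CKO 2 was the lowest of the 6 arrays. The difference was -0.09 ± 0.28, with a 95% interval of -0.75 to 0.57 (adjusted p 0.842), so a fall or a rise of up to those sizes is not resolved by 3 arrays per genotype. The same-day difference was -0.65, and without CKO 2 the difference was 0.19.

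The release channel gene Ryr2 was not tested, since none of its 3 probes was well above background on all arrays of a genotype. Probe A_52_P10205 was well above background on CKO 3 only, where its level was -5.93, against -7.07 on CKO 1, -7.54 on CKO 2 and -7.45 to -7.06 on the controls. The probe printed above lay at -8.56, -8.74 and -7.52 in CKO embryos and at -8.43, -9.00 and -8.78 in controls, not well above background on any array. The third, A_52_P102755, lies on the opposite strand to the other two in the array's annotation, so it need not read Ryr2 RNA, and lay between -8.99 and -7.65 over the 6 arrays. With no filter, the brightest of these probes differed by 0.37 ± 0.43 (adjusted p 0.576).

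Atp2a2, the pump that refills the store, had 3 kept probes, of which 1 fell. Probe A_51_P451075, the brightest of the gene, had levels of 0.93, 0.74 and 0.55 in CKO embryos and of 1.99, 1.80 and 1.35 in controls. The groups did not overlap, the difference was -0.97 ± 0.22, a 1.96-fold fall (adjusted p 0.0432), and the same-day difference was also -0.97. That call was close to the threshold: it was lost with no filter on dim probes (0.0852), with slide as a random block (0.0517), with the spike-in split as a block (0.297), with scan day as a block (0.437), with the replicate block (0.0647) and in 5 of the 6 fits that left out 1 array (all but that without control 3), at adjusted p 0.055 to 0.16.

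The other kept probes of Atp2a2 did not pass the test. Probe A_52_P168097 had levels of -0.47, -0.25 and -0.25 in CKO embryos and of -0.08, -0.15 and 0.08 in controls, a difference of -0.28 ± 0.16 (adjusted p 0.26). Probe A_52_P569001 had levels of 0.98, 1.03 and 0.84 in CKO embryos and of 0.97, 1.01 and 1.13 in controls, a difference of -0.09 ± 0.15 with a 95% interval of -0.44 to 0.26 (adjusted p 0.702). The probe that fell is the most 3′ of the gene on the array, at 121687917 to 121687976 on the minus strand of chromosome 5 (mm7), and the other two lie 3.15 and 6.96 kb upstream of it. Set against A_52_P569001 on the same array, the 3′ probe differed by -0.88 between CKO and control (exact two-sided permutation test, p 0.1, the smallest that 3 against 3 arrays allow; 0.125 adjusted over 10 pairs of probes). The fourth probe, A_52_P1156808, 43.05 kb upstream, was not well above background on any array, with levels of -8.94 to -6.25. The mean over the 3 kept probes differed by -0.44 and did not pass (adjusted p 0.0653).

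The inhibitors of this pump could not be compared. The single probe of Pln was not well above background on any array, at levels of -7.77, -8.66 and -8.02 in CKO embryos and of -6.47, -7.29 and -8.83 in controls. Neither probe of Sln was well above background on any array; the brighter of them lay at -7.70, -7.48 and -6.86 in CKO embryos and at -6.99, -7.11 and -6.87 in controls, and A_51_P297498 lay between -9.32 and -7.25 over the 6 arrays. For both genes the RNA was not detectable on these arrays, which does not show that it was absent.

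Cacna1c, the pore of the cardiac L-type calcium channel, had 2 probes, 0.301 kb apart, and the more 3′ of them fell. Probe A_52_P25903 had levels of -6.10, -5.93 and -6.36 in CKO embryos and of -3.72, -4.31 and -4.52 in controls, with no overlap. Its difference was -1.95 ± 0.25, a 3.86-fold fall (adjusted p 0.0103), and from the same-day arrays it was -1.75; the call was lost without CKO 1 (adjusted p 0.0539), without CKO 3 (0.0514), with the spike-in split as a block (0.136) and with scan day as a block (0.304). The brighter probe, A_51_P376996, through which the gene was counted, had levels of -4.56, -5.35 and -5.16 in CKO embryos and of -3.37, -4.15 and -4.20 in controls. There too the groups did not overlap, but the difference of -1.12 ± 0.31 (95% interval -1.86 to -0.37) missed the threshold (adjusted p 0.0716). The gene passed under quantile scaling (-1.31, adjusted p 0.0397), median scaling (0.0432) and normexp (-0.66, 0.0477), and as the mean of its probes (-1.53, 0.0166).

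Slc8a1, the sodium-calcium exchanger, had 4 kept probes, whose differences ranged from -4.09 to 0.22. Probe A_52_P231461 had levels of -8.81, -9.01 and -8.81 in CKO embryos and of -4.42, -4.90 and -5.04 in controls. It was well above background on all 3 control arrays and on no CKO array, and was at least 3.73-fold lower in CKO (measured difference -4.09 ± 0.21, adjusted p 0.000918, same-day difference -4.23). With scan day as a block that call was lost (adjusted p 0.0985). Its measured difference was -0.90 with normexp correction. The brightest probe, A_51_P277373, had levels of -5.26, -6.55 and -4.06 in CKO embryos and of -2.60, -3.04 and -3.09 in controls. These CKO arrays were widely spread (SD 1.25, against 0.27 in controls), and the difference of -2.38 ± 0.59 (95% interval -3.80 to -0.96) just missed the threshold (adjusted p 0.0557). It passed without CKO 2 (-1.75, adjusted p 0.0417) and without CKO 3 (-2.998, 0.0385), and the same-day difference was -3.64.

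Farther towards the 5′ end of Slc8a1 the differences were smaller. Probe A_52_P562704 had levels of -5.38, -5.55 and -3.78 in CKO embryos and of -3.43, -3.79 and -3.82 in controls, where CKO 3 lay among the controls (difference -1.23 ± 0.47, adjusted p 0.136; without CKO 3, -1.79 and 0.0283). Probe A_52_P313284 had levels of -4.05, -4.67 and -3.53 in CKO embryos and of -4.15, -4.24 and -4.53 in controls, with a difference of 0.22 ± 0.30 (95% interval -0.51 to 0.95, adjusted p 0.633). On each array the level of the brightest probe, A_51_P277373, minus that of A_52_P313284 can be read without any scaling, and the difference between CKO and control in this quantity was -2.60 (exact two-sided permutation test, p 0.1, 0.125 adjusted over the 10 pairs). In the array's annotation these probes were placed 118 kb (A_52_P231461), 120 kb (A_51_P277373), 141 kb (A_52_P562704) and 178 kb (A_52_P313284) upstream of the most 3′ probe of the gene, A_52_P244931, which was not well above background on any array, with levels of -9.21 to -7.95. No exon annotation of this build was used, so which transcripts each probe reads was not tested.

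**Figure D2:**
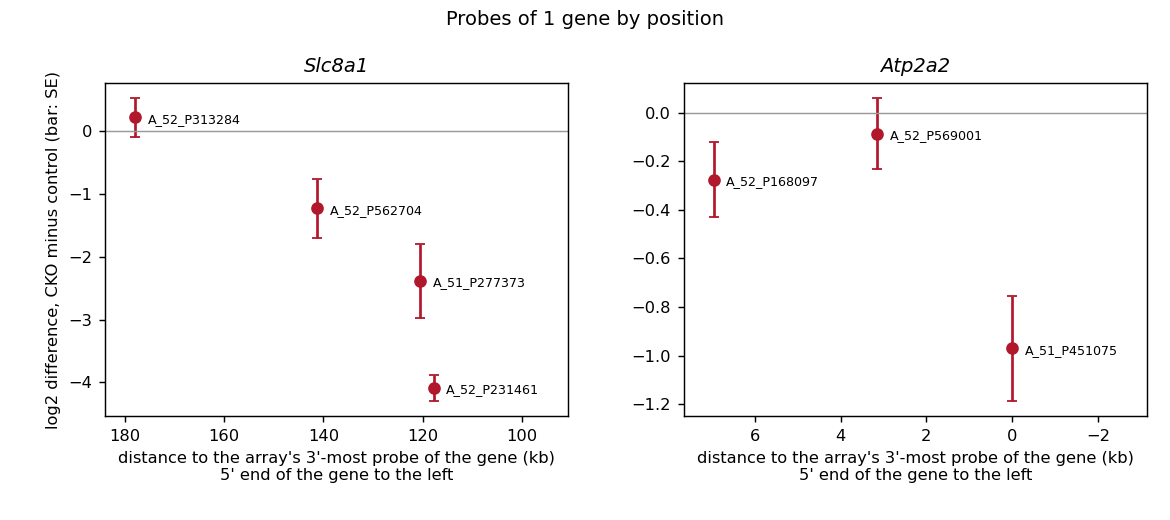
Difference between Brg1 CKO and control (y axis, log2, bar: SE of the limma fit) of each kept probe of Slc8a1 (left) and Atp2a2 (right), against the distance in kb from the array's most 3′ probe of the gene, with the 5′ end to the left. The Slc8a1 differences run from 0.22 at 178 kb to -4.09 at 118 kb, where no CKO array was well above background, and of the Atp2a2 probes the most 3′ has a difference of -0.97.

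**Figure D3:**
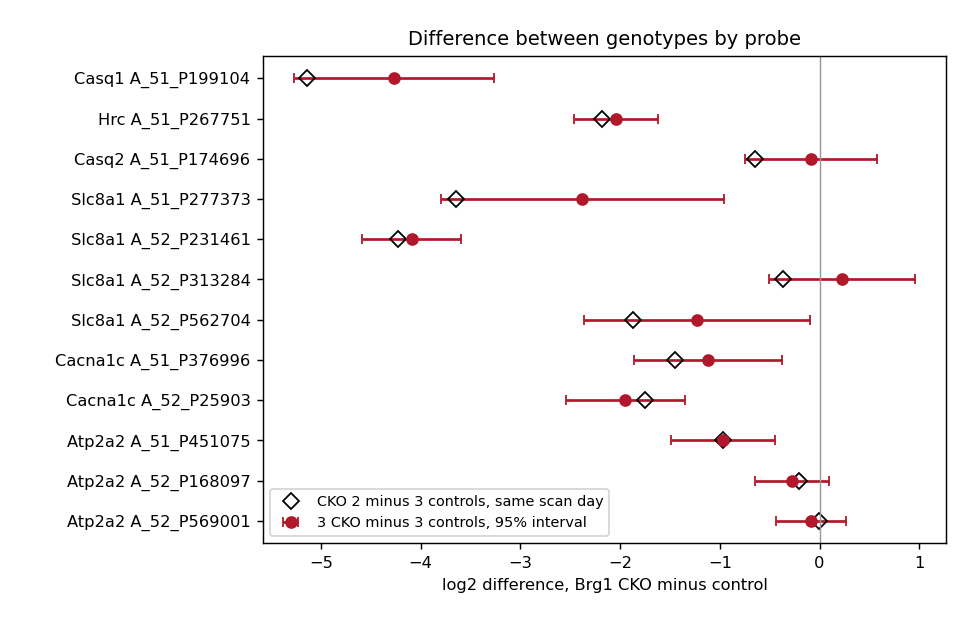
Difference between Brg1 CKO and control (x axis, log2) for the 12 kept probes, with the 95% interval of the limma fit (filled points) and the same-day difference of CKO 2 from the 3 controls (open diamonds). For every probe but A_52_P313284 of Slc8a1 the filled point lies below 0, and the diamonds of all 12 do.

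The contractile genes of the heart fell on the same arrays. Of 16 sarcomere genes 14 were called lower and none higher, led by Myh7, Myh6 and Myl2, with differences of -8.34, -6.89 and -6.58. Their median difference was -3.90, with a same-day median of -4.12. Their summed level, in units of the array's 75th percentile, was 23.8 to 30.9 on the CKO arrays and 191 to 272 on the control arrays. Each calcium handling gene was therefore also read relative to the median level of these 16 genes on its own array, a quantity that no scaling by a constant can alter. Relative to that median Casq2 was 4.86 higher in CKO, Atp2a2 3.98, Cacna1c 3.83, Hrc 2.91 and Slc8a1 2.57. A median of levels depends on which probes stand in the middle of the list, and the rises become smaller when each sarcomere gene is first centred on its own mean over the 6 arrays (a setting chosen after the values were seen). Casq2 was then 3.85 higher in CKO, Atp2a2 2.97, Cacna1c 2.82, Hrc 1.90 and Slc8a1 1.56. By both measures every CKO array lay above every control array for these 5 genes. That gives an exact two-sided permutation p of 0.1 (0.12 adjusted over 6 genes), the smallest possible with 3 arrays per genotype. The median difference over all named genes was 0.07, so a gene that did not change also rises against this yardstick. The share of all genes separated in this way was not computed, so the separation cannot be read as particular to these 5 genes. Background limits how far a dim probe can fall, and control means were -5.78 for Casq2, -3.90 for Cacna1c and -2.91 for Slc8a1. How much of the rises of these dim probes reflects that limit was not tested. For Casq1, whose CKO signals were not well above background, the groups overlapped by both measures, with differences of 0.68 from the median of levels (exact p 0.3) and -0.33 after centring (exact p 0.4). With normexp correction the first of these was 3.13 (exact p 0.1), so its sign and size are not settled.

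**Figure D4:**
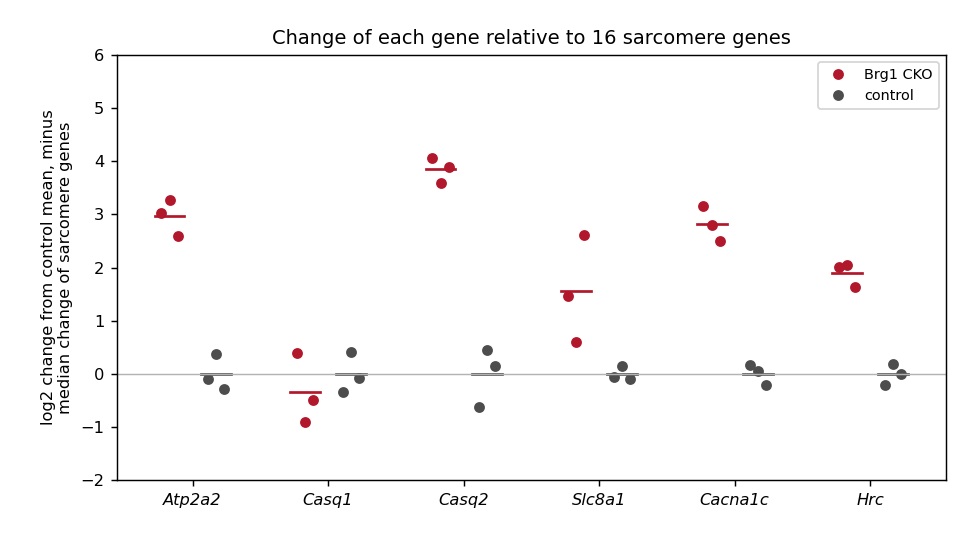
Level of each calcium handling gene minus the median of 16 sarcomere genes on the same array, each sarcomere gene centred on its own mean (y axis, log2), shifted so that the control mean of each calcium handling gene is 0; points are arrays and lines are means of 3, Brg1 CKO left and control right. CKO means lie between 1.56 and 3.85 for all genes but Casq1, whose mean is -0.33 and whose points overlap the controls.

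The size of the difference varied among the genes too, although 3 arrays per genotype cannot bring such a comparison below an exact p of 0.1. The yardstick was Atp2a2 on the same array, through A_51_P451075, the only kept probe of that gene that fell. Its other kept probes differed by -0.28 and -0.09, so the values below hold against that probe only. Relative to it the CKO minus control difference was -1.07 for Hrc, with no overlap between genotypes (exact permutation p 0.1, 0.25 adjusted over 5 genes). For Slc8a1 the value was -1.41 and for Casq2 0.88 (exact p 0.2 for each), and for Cacna1c -0.15 (exact p 0.6). For Casq1 it was -3.30 (exact p 0.1), a value that rests on CKO signals not well above background. With normexp correction these values were -0.64 for Hrc, -0.53 for Casq1 (exact p 0.2) and 0.27 for Cacna1c, whose sign turned.

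Genes that mark other tissues of the embryo moved as well, and their part in the falls above was not tested. Skeletal muscle also uses Casq1, and of 10 genes of the skeletal myotome 5 were measured and 1 fell (Acta1, which the embryonic heart also uses, with a difference of -3.41). Myf5, Myf6 and Myog were not well above background on any array. Myod1 and Chrna1 were well above background on some arrays, but not on all arrays of a genotype, and were not tested. The summed level of the list was 0.358 to 0.559 on CKO arrays and 1.58 to 2.69 on control arrays. Without Acta1 the sums were 0.279 to 0.305 in CKO and 0.271 to 0.64 in control, which overlap. Of 6 smooth muscle genes 2 fell (Lmod1, -2.53, and Cnn1, -1.999; summed level 20.9 to 24.5 in CKO, 33.1 to 38.5 in control), and of 6 endothelial genes 2 fell (Emcn, -4.19, and Cdh5, -1.31; 4.62 to 5.77 in CKO, 8.66 to 10.7 in control). Of 13 heart transcription factors 3 fell (Myocd, -1.72, Tbx5, -1.37, and Mef2a, -0.81) and 1 rose (Hand1, 1.41), and the list's median difference was -0.10. Its summed level was 23.2 to 25.0 on CKO arrays and 18.2 to 21.5 on control arrays. Such sums weigh bright probes most and do not show a shift of the whole list. Here Hand1 was among the bright ones, at levels of 2.46 to 3.03 in CKO and 0.87 to 2.02 in control.

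Tissues outside the heart field were represented too. Of 8 neural tube genes 4 fell and 1 rose (summed level 7.75 to 8.67 in CKO, 11.6 to 29.1 in control). Among those that fell were En2, Pax6 and En1, which was not well above background on any CKO array (at least 3.61-fold lower). Of 8 somite genes 4 fell, led by Lfng, Tbx6 and Meox1 (2.54 to 2.91 in CKO, 5.38 to 14.7 in control). Lfng entered through the control arrays and was well above background on 1 CKO array only. Of 6 measured trophoblast genes 4 rose, led by Elf5, Eomes and Tfap2c (18.9 to 28.8 in CKO, 11.9 to 19.9 in control). Of the other genes in that list, Tpbpa was not well above background on any array, and Gcm1 was so on some arrays only. Control 1 stood apart from the other controls in yolk sac and blood genes. None of 7 measured yolk sac genes passed (222 to 254 in CKO; 72.7 in control 1, 325 in control 2 and 334 in control 3), and 1 of 8 primitive erythroid genes fell, Hemgn (77.1 to 93.7 in CKO; 75.8 in control 1, 291 in control 2 and 335 in control 3). Without control 1, limma called 3 of the 7 yolk sac genes and 8 of the 8 erythroid genes lower. Of 5 measured decidua genes Prl8a2 rose and Des, a muscle intermediate filament gene, fell (2.95 to 3.56 in CKO, 1.47 to 3.89 in control). Hemgn was well above background on 2 of the 3 CKO arrays, and Prl8a2 on 1 of the 3 control arrays. Hand2 stands in both the decidua list and that of heart factors. The counts of these lists moved with single arrays: without CKO 1, CKO 3 or control 2, none of the heart transcription factors and 0 to 1 of the somite genes were called lower, against 14 of 16 sarcomere genes in each of those fits. In the same 3 fits 1 to 2 of the neural genes, 1 of the endothelial genes and none of the erythroid genes were called lower and 1 to 3 of the trophoblast genes higher, and without control 2 the Acta1 call was lost.

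Around these 9 genes, 76 other genes of calcium handling were listed, of which 74 were on the array and 71 measured. Of the 71, 6 fell and 1 rose, against 5.3% lower and 5.25% higher over all genes. Their median difference was -0.18, against 0.07 over all genes, and 42 of the 71 were negative. Without CKO 2, 8 fell and 6 rose; without CKO 1, CKO 3 or control 2, 4 fell and none rose. Of the genes that fell, Trdn encodes triadin, which ties calsequestrin to the ryanodine receptor. Its levels were -8.43, -8.63 and -8.59 in CKO embryos and -2.95, -3.17 and -3.90 in controls, well above background in the controls only, and it was at least 10.2-fold lower in CKO (measured difference -5.21 ± 0.27, adjusted p 0.000938). Jph2 encodes junctophilin 2, which holds the 2 membranes together, and had levels of -3.16, -3.77 and -3.15 in CKO embryos and of -1.51, -0.83 and -0.95 in controls (difference -2.26 ± 0.27, adjusted p 0.00801). Cav3, caveolin 3 of muscle membranes, was at least 3.04-fold lower in CKO and not well above background on any CKO array (measured difference -3.11 ± 0.37, adjusted p 0.00818). With normexp correction the differences of Trdn and Cav3 were only -1.37 and -0.56, with both calls kept (limma adjusted p 0.00475 and 0.0236). Their bounds therefore hold for the main processing only.

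Channel subunits went in both directions. Rrad, a small GTPase that inhibits L-type channels, fell 7.995-fold, with levels of -3.95, -4.61 and -3.93 in CKO embryos and of -0.95, -1.40 and -1.14 in controls (difference -2.999 ± 0.24, adjusted p 0.00304). Cacna1g, a T-type pore subunit, fell by 1.81 ± 0.42 (adjusted p 0.0468) and Cacna1s, the skeletal muscle L-type pore, by 1.52 ± 0.31 (0.0341). Both calls were lost in each fit that left out 1 array, except that without control 1. Cacnb3, an auxiliary beta subunit, rose by 1.14 ± 0.17 (adjusted p 0.0149), with levels of 0.57, 0.25 and 0.24 in CKO embryos and of -0.89, -0.64 and -0.84 in controls. That call was lost without CKO 1, CKO 3 or control 2 (adjusted p 0.0627, 0.0621 and 0.061).

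The remaining relatives of the cardiac genes did not pass the test. For the ryanodine receptors the differences were 0.49 ± 0.31 in Ryr1 and 0.58 ± 0.39 in Ryr3. For the calcium pumps of the store they were -0.37 ± 0.18 in Atp2a1 and 0.98 ± 0.29 in Atp2a3, and for the surface pump Atp2b1 -0.66 ± 0.24. The exchangers Slc8a2 and Slc8a3 differed by 0.58 ± 0.24 and 0.11 ± 0.28. The other pore subunits Cacna1d and Cacna1h differed by -0.58 and -0.36, and the auxiliary subunits Cacnb1, Cacnb2, Cacna2d1, Cacna2d2 and Cacna2d3 by 0.99, -0.997, 0.29, 1.30 and -0.62. Junctophilins Jph1, Jph3 and Jph4 differed by -0.56, -0.23 and 0.62, the luminal protein gene Srl by -0.46 and Asph, which encodes junctin among other products, by -0.71 ± 0.17 (adjusted p 0.0514). Cacnb4, Atp2b2 and Atp2b3 were not measured on all arrays of a genotype.

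**Figure D5:**
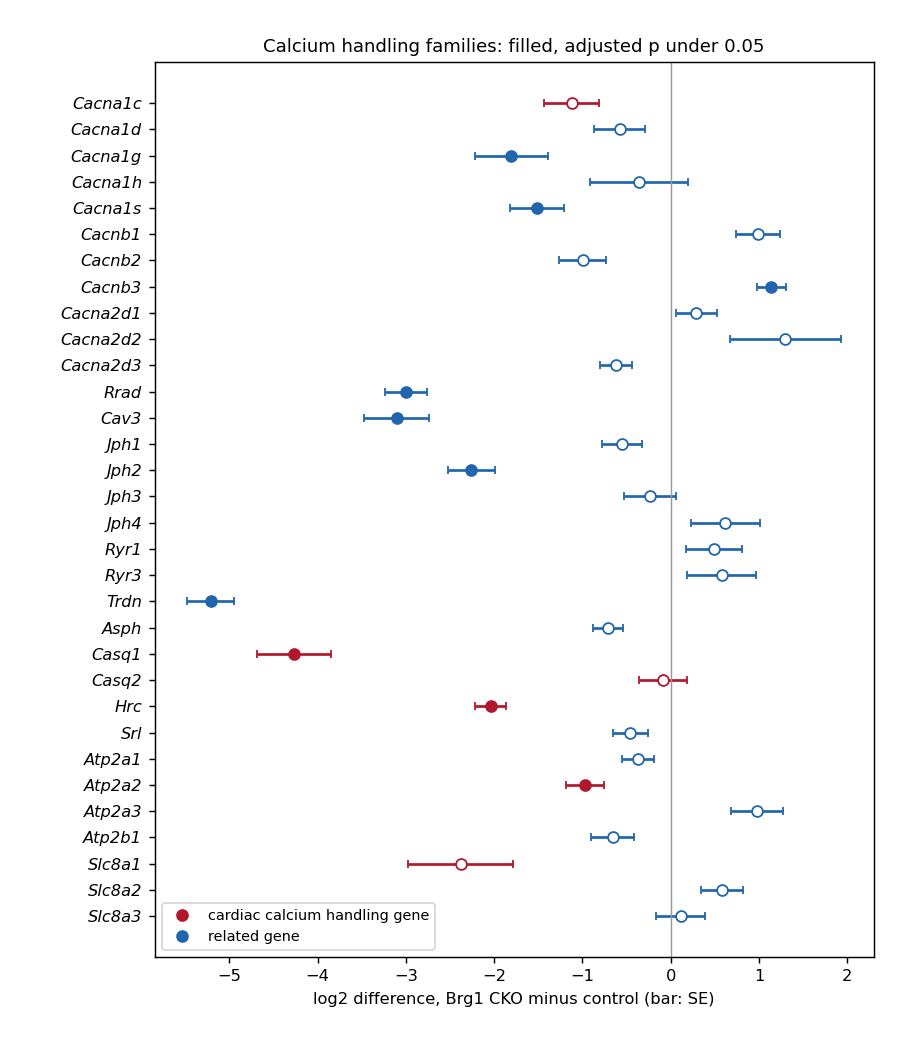
Difference between Brg1 CKO and control (x axis, log2, bar: SE of the limma fit) for the 6 measured calcium handling genes (red) and their relatives (blue), by the brightest probe of each gene; filled points have an adjusted p under 0.05. The points of Trdn, Casq1 and Cav3 rest on CKO signals not well above background. Under the main processing their falls are given only as at least 10.2-fold, 12.2-fold and 3.04-fold. Of the genes measured on all arrays Rrad has the largest fall, and Cacnb3 (1.14) is the filled point to the right of 0.

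The genes with the most similar profiles were looked up for the 2 members that passed and were well above background on all 6 arrays. Likeness was the root mean square distance between log2 profiles over the 6 arrays, each centred on its own mean, among 14192 genes. The 3 nearest to Hrc were Pcolce, an enhancer of procollagen processing (0.101), Gstm2, a glutathione transferase (0.112), and Speg, a kinase of striated muscle (0.126), whose differences were -2.12, -2.04 and -2.13. The 3 nearest to Atp2a2 were 5830417I10Rik (0.0916), Inpp4b, a phosphoinositide phosphatase (0.092), and Pygl, the liver glycogen phosphorylase (0.102), with differences of -0.89, -1.05 and -0.93. With 6 arrays in 2 groups, such distances largely reflect the size of the difference between genotypes.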

How the data were processed

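RNA of 6 whole E8.5 mouse embryo samples was labelled with Cy3 from 250 ng each and hybridised to 1-colour Agilent arrays, per the labels. The scanner files hold intensity values that the authors made with Agilent Feature Extraction 9.5, per the submitters' processing notes. Per the file headers, background was subtracted, spatial trends were removed and dim spots received surrogate values, with no scaling between arrays; flags of 0 or 1 (unit: other) mark outliers, saturated spots and spots clearly brighter than background. The deposited series table held the same intensity values at 100% of spots (relative tolerance 1e-4), and 0 of its columns belonged to no sample.

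Spots flagged as outliers, 53 to 83 on an array, and control spots were dropped, log2 signals were reduced by each array's 75th percentile, and spots of a probe were averaged. The deposited intensity at that percentile was 1630, 972 and 1583 units on CKO 1, 2 and 3 and 1000.5, 1011 and 959 on controls 1, 2 and 3. A probe entered the test where all 3 arrays of either genotype had it well above background. Array symbols were updated by accession (23082 probes), symbol (6582) or synonym (3073) to a GRCm38.p6 table; 8437 probes kept the array's name. Genotypes were compared with limma 3.58.1 under R 4.3.3, by lmFit, eBayes and two-sided tests with Benjamini-Hochberg adjustment and a threshold of 0.05, a gene being counted through its brightest kept probe. Where every array of 1 genotype was dim, the fold is a lower bound under the main processing, computed from the dimmest well-above-background signal of each array. Ratios within an array were tested with exact permutations over arrays. The fit was tested on simulated data.

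The rule for named genes took every probe of the 9 genes, the brightest Smarca4 probe, and listed calcium genes that passed or belong to the 9 genes' families. It also took up to 3 passing genes per marker list, and the 3 nearest profiles of each of the 9 genes that passed and was well above background on all 6 arrays. The other Smarca4 probes and the bright probes named beside summed levels were added outside this rule. Members, lists, tests and this rule were chosen with earlier results of these data known. Same-numbered replicates deviated from their group means with correlations of -0.07, 0.13 and 0.06. For numbers 2 and 3 this was the highest of the correlations compared. All were small, and numbers were not taken as pairs, though pairing is not settled by this. Sequences are from the scanner files and RefSeq. The number of arrays limits precision. Python 3.11.15 and matplotlib 3.10.9 were used; alternatives are given in the closing section.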

Additional observations from a re-analysis of the deposited data

How the results depend on the processing

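The count of calcium handling genes called lower, 3 in the main fit, was 5 with quantile scaling, median scaling, normexp or array weights, Slc8a1 and Cacna1c being added. With scan day as a block every call was lost, for these genes and for all others. That fit compares only CKO 2 with the controls, as does the fit on those arrays alone (chosen after seeing the data). The 2 are therefore the same check and rest on 1 CKO array. The count lower was 2 with the spike-in split as a block and lay between 2 and 3 when 1 array was left out. None was called higher in any setting. Of 71 related genes, 6 in the main fit, the count lower was 11 with quantile scaling or normexp and 10 with an intensity trend. It was 19 with array weights and 4 to 8 with 1 array left out. The count higher of related genes, 1 in the main fit, was 2 with normexp, 10 with array weights and 4 with the mean of a gene's probes. It was 0 at an adjusted p under 0.01, 0 with the spike-in split or the replicate block, and 0 to 6 with 1 array left out. With the replicate block, although numbers were not taken as pairs, 2 calcium handling genes and 4 related genes were lower. In that fit 564 of all genes were called, against 1585 in the main fit. Over all genes 6355 were called with array weights, 122 with the spike-in split as a block and 693 with no filter. Median scaling shifted every log2 difference by 0.10 downwards. No called difference changed sign in any setting. Dim signals and 3 arrays per genotype limit what was measured: Ryr2, Pln and Sln stayed near background.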
